A study of Mus musculus with 13 samples.

Results

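Of the 20270 genes listed for these mouse lungs, 10 were chosen by symbol. The reason was that they make serine, glycine, proline or asparagine, or control the genes that do. Earlier results of these data were known when the choice was made. All 10 were among the 15315 genes that passed the filter on low counts. They were the transcription factor gene Atf4, the serine synthesis genes Phgdh, Psat1 and Psph, the mitochondrial folate genes Shmt2, Mthfd2 and Aldh1l2, the proline synthesis genes Aldh18a1 and Pycr1, and the asparagine synthetase gene Asns. RNA came from the lower right lung lobe of 13 mice in 3 groups on the C57BL/6J background. The 4 Control mice (labelled 3, 21, 24 and 26) were wildtype and had no bleomycin, and the study's methods name saline as the vehicle of its controls. The 5 WT bleomycin mice (4, 2, 5, 4-B2 and 7) were wildtype and were taken 14 days after bleomycin was given once by the oropharyngeal route, at 1 U per kg, a drug that injures the lung and leads to scarring. The 4 CB1R KO bleomycin mice (8, 9, 10 and 11) had the same dose and time and lacked Cnr1, the gene of cannabinoid receptor 1, in all cells. The wildtype mice were males of 13 weeks, and the age of the CB1R KO mice is not given in the sources used here. CB1R KO lungs without bleomycin were not analysed here, so an effect of the deletion alone and an effect on the response to bleomycin cannot be told apart. Values below follow the order in which the mice of each group are named here.

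Serine is made from a glycolytic intermediate in a short cytosolic pathway and then gives up a carbon unit to folate in the mitochondrion, which leaves glycine. Proline is made from glutamate. Glycine and proline are the amino acids that collagen needs in the largest amounts, and many of the enzymes are known targets of Atf4, a factor that is controlled mainly through translation of its mRNA when amino acids run short or the endoplasmic reticulum is stressed. In cultured lung fibroblasts the same genes are known to respond to transforming growth factor beta through mTOR and Atf4.

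The known Atf4 binding element, a joint C/EBP and ATF half-site, was searched as TGATGNAA, together with the E-box CACGTG and the CCAAT box, on both strands of windows of 250 bases before to 50 after each annotated start in RefSeq, build GRCm38.p6. Windows were at hand for 9 of the 10 members, with 2 starts for Psat1. The window of its other start held none of the 3 motifs. TGATGNAA was present in the windows of Asns and Pycr1, against 3.97% of all 32851 windows. CACGTG was present in that of Aldh18a1 (7.15% of all windows) and CCAAT in those of 6 members (37.4% of all windows). In the 15284 windows of genes that were tested, the shares were 2.50% for TGATGNAA, 9.13% for CACGTG and 37.0% for CCAAT. The 3 motifs did not overlap in the stretches printed here, which are the 120 bases just before the start, read 5′ to 3′ on the strand of the gene, with every match in capitals. Asns, Pycr1 and Aldh18a1 are shown for the first 2 motifs. Psat1 and Mthfd2 are shown because they had the largest log2 fold changes with bleomycin in the edgeR fit. Phgdh is shown because it works in the step before Psat1 and its RNA did not pass the test. A match is only a match of letters. A window without one says only that these letters were not in it.
Asns (chr6:7693210-7693329, minus strand, TGATGAAA starting 23 bases before the start): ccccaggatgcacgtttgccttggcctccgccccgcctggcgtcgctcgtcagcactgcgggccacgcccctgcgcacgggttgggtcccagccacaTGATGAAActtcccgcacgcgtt
Pycr1 (chr11:120643749-120643868, minus strand, TGATGCAA starting 103 bases before the start): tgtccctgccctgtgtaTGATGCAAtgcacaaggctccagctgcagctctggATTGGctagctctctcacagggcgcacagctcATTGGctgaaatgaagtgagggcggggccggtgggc
Aldh18a1 (chr19:40588464-40588583, minus strand, CACGTG starting 59 bases before the start): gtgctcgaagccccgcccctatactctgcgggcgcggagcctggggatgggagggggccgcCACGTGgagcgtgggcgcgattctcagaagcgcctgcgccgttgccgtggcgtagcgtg
Psat1 (chr19:15925060-15925179, minus strand, 2 CCAAT boxes): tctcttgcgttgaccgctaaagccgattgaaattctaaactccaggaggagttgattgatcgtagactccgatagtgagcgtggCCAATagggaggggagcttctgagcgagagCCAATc
Mthfd2 (chr6:83317605-83317724, minus strand, 3 CCAAT boxes): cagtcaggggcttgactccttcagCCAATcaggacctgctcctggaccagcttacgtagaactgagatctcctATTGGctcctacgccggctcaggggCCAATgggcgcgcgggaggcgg
Phgdh (chr3:98339970-98340089, minus strand, 1 CCAAT box): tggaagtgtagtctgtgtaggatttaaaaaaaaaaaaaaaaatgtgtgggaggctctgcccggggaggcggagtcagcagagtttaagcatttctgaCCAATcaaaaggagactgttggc

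Of the 13 libraries, 12 had totals of estimated counts from 14615904 to 16662580. The deepest, CB1R KO replicate 11, had 53463884, or 3.33 times the median of the others. Summed type II cell markers, 8 surfactant and related genes, were between 12549 and 23029 counts-per-million (CPM) in all libraries. None of the 8 was at 0 in every library of a group, so the label of the tissue was met. Cnr1 was counted in every library, at 1.62 to 4.10 CPM in Control, 3.46 to 6.97 in WT bleomycin and 2.47 to 5.63 in CB1R KO bleomycin. The fold change between the last 2 groups missed the threshold (log2 fold change -0.53, SE 0.28, adjusted p = 0.367 with edgeR). The counts are per gene and the deleted stretch is not given in the sources used here, so they do not check the genotype.

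In WT bleomycin lungs 7 of the 10 members were higher than in Control and none was lower. They were Mthfd2, Psat1, Pycr1, Aldh18a1, Aldh1l2, Shmt2 and Asns, with log2 fold changes from 0.36 to 1.58. Atf4, Phgdh and Psph did not pass the test. Among all genes tested, 25.0% were called higher and 23.9% lower in this comparison, so a call by itself was common. For the 7 raised members all 5 WT bleomycin lungs also lay above all 4 Control lungs, which held for 21.5% of all genes. The median log2 fold change was 0.68 over the 10 members and -0.01 over all genes. Since the members were chosen with earlier results of these data known, these contrasts with all genes are a description only. A gene was called when its p in the edgeR quasi-likelihood fit, adjusted over the 15315 genes by the Benjamini-Hochberg method, was under 0.05. RNA came from whole tissue, so a change in the number of cells of a type and a change in RNA per cell cannot be told apart.

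**Figure D1:**
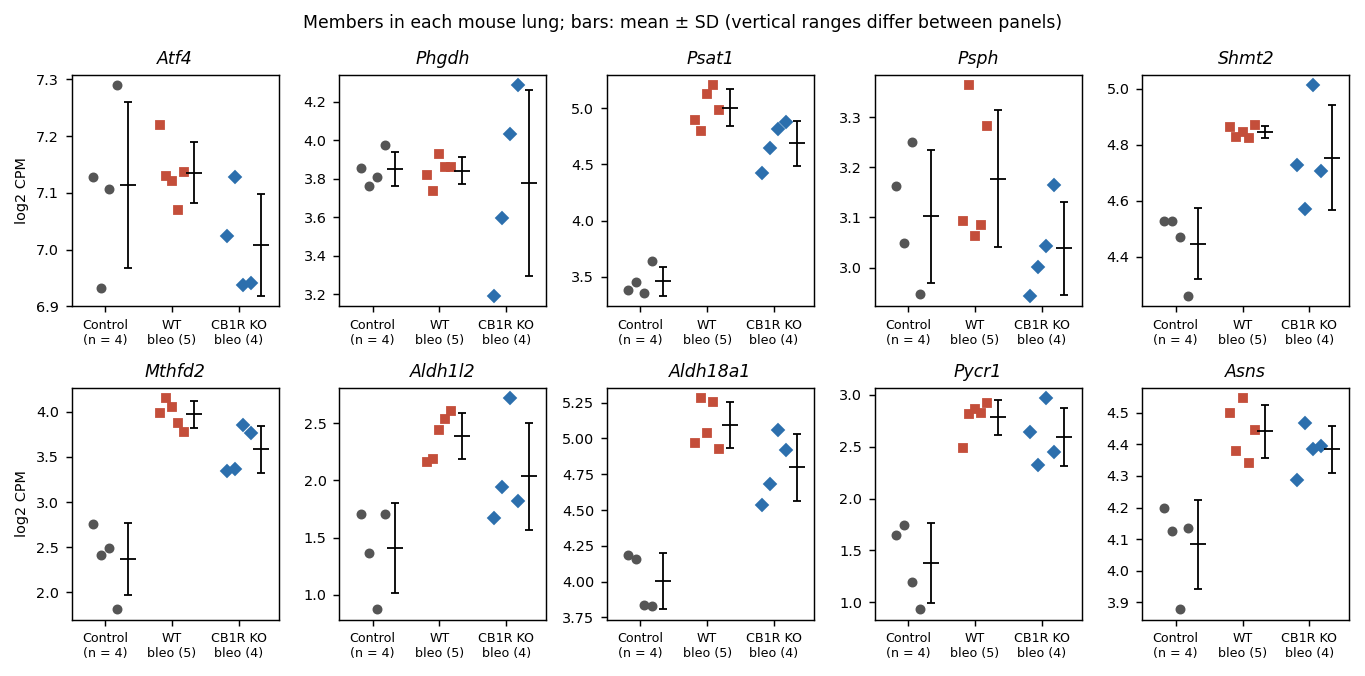
Log2 CPM of each member (vertical axis, range set per panel) in each mouse (points) of Control, WT bleomycin and CB1R KO bleomycin, with bars for the group mean ± SD. In 7 panels all 5 WT bleomycin lungs sit above all 4 Control lungs, while those of Atf4, Phgdh and Psph overlap.

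Atf4, the regulator itself, was at 140, 122, 138 and 156 CPM in Control lungs, at 149, 140, 139, 134 and 141 CPM in WT bleomycin lungs and at 130, 140, 122 and 123 CPM in CB1R KO bleomycin lungs. The WT bleomycin values all lay inside the Control range. The log2 fold change was 0.02 (SE 0.07, adjusted p = 0.86 with edgeR), with a 95% interval from -0.13 to 0.16. The measure is of mRNA and does not give the amount of Atf4 protein.

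Phgdh, which oxidises 3-phosphoglycerate in the first step of serine synthesis, was at 14.4, 13.5, 13.9 and 15.6 CPM in Control and at 14.0, 13.2, 15.1, 14.4 and 14.4 CPM in WT bleomycin. The groups overlapped almost fully and the log2 fold change was -0.01 (SE 0.17, adjusted p = 0.968 with edgeR), with a 95% interval from -0.37 to 0.35.

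Psat1, the aminotransferase of the next step, was at 10.3, 10.9, 10.1 and 12.4 CPM in Control and at 29.6, 27.7, 34.7, 36.8 and 31.5 CPM in WT bleomycin. Every bleomycin lung was far above every Control lung. The log2 fold change of 1.55 (SE 0.11, adjusted p = 1.9e-07 with edgeR) was a 2.93-fold rise. Psph, the phosphatase that releases free serine, was at 8.86, 8.17, 9.41 and 7.60 CPM in Control and at 8.43, 10.2, 8.25, 8.37 and 9.63 CPM in WT bleomycin. Its groups overlapped and the log2 fold change was 0.08 (SE 0.11, adjusted p = 0.59 with edgeR; 95% interval -0.16 to 0.31). The 95% interval for Psat1, from 1.31 to 1.80, did not reach those of Phgdh and Psph, the steps before and after it.

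Shmt2, the mitochondrial hydroxymethyltransferase that turns serine into glycine, was at 22.9, 23.0, 22.1 and 19.1 CPM in Control and at 29.0, 28.3, 28.6, 28.2 and 29.1 CPM in WT bleomycin. The bleomycin lungs lay close together (SD 0.02 on the log2 CPM scale) and above every Control lung. The log2 fold change was 0.40 (SE 0.09, adjusted p = 0.00181 with edgeR).

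Mthfd2, which oxidises the folate-bound carbon in the mitochondrion and is known as a gene of embryonic and dividing cells, was at 6.66, 5.23, 5.51 and 3.41 CPM in Control and at 15.8, 17.6, 16.5, 14.6 and 13.6 CPM in WT bleomycin. The groups did not overlap, and the Control lungs spread more than the bleomycin lungs. This was the member with the highest fitted value, a log2 fold change of 1.58 (SE 0.17, adjusted p = 5.7e-06 with edgeR). Its rank depended on the setting. Over 25 alternatives Mthfd2 ran from 1.11 to 1.73 and Psat1 from 1.44 to 1.61. Mean transcripts-per-million (TPM) in Control and WT bleomycin was 5.79 and 13.1 for Mthfd2, 6.62 and 19.6 for Psat1, and 1.98 and 5.97 for Pycr1. Aldh1l2, which burns the carbon unit to carbon dioxide and yields NADPH, was at 3.15, 2.46, 1.73 and 3.16 CPM in Control and at 4.37, 4.45, 5.31, 5.68 and 5.99 CPM in WT bleomycin. The groups did not overlap and the log2 fold change was 0.97 (SE 0.24, adjusted p = 0.00422 with edgeR). It was the least abundant member per length of transcript, while in Control its mean CPM was close to that of Pycr1. It had 27.0 to 104 estimated counts in libraries of ordinary depth, and its SE was the widest of the 10.

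Aldh18a1, which commits glutamate to proline synthesis, was at 18.1, 17.7, 14.2 and 14.1 CPM in Control and at 31.2, 38.7, 32.8, 38.0 and 30.4 CPM in WT bleomycin. All bleomycin lungs were well above all Control lungs, with a log2 fold change of 1.09 (SE 0.12, adjusted p = 7.8e-06 with edgeR). Pycr1, the mitochondrial reductase that finishes proline, was at 3.03, 3.24, 2.18 and 1.80 CPM in Control and at 5.51, 6.92, 7.19, 6.99 and 7.47 CPM in WT bleomycin. Again no values overlapped, and the log2 fold change was 1.40 (SE 0.20, adjusted p = 4.7e-05 with edgeR).

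Asns, which makes asparagine from aspartate and glutamine, was at 18.2, 17.4, 14.6 and 17.5 CPM in Control and at 22.5, 20.7, 23.2, 20.1 and 21.7 CPM in WT bleomycin. The lowest bleomycin lung was just above the highest Control lung. The rise was 0.36 on the log2 scale (SE 0.08, adjusted p = 0.0024 with edgeR). Of the members with a TGATGNAA match in the printed stretch, Asns thus had the smallest edgeR log2 fold change of the 7. Pycr1 had the largest after Mthfd2 and Psat1.

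**Figure D2:**
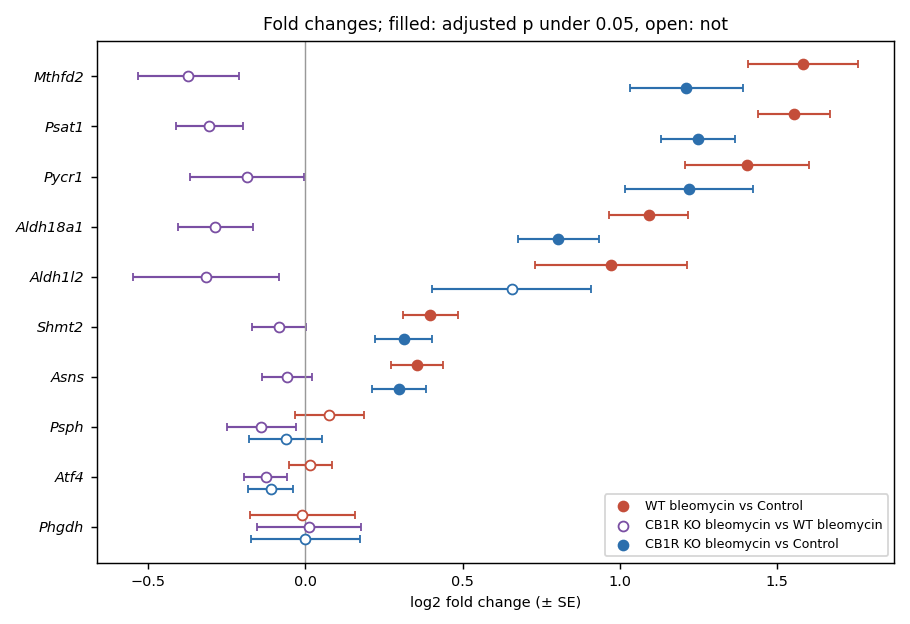
Log2 fold change of each member (horizontal axis, bars ± SE) in WT bleomycin against Control (red), CB1R KO bleomycin against WT bleomycin (purple) and CB1R KO bleomycin against Control (blue), with filled points for an adjusted p under 0.05. All 7 red points from Asns at 0.36 up to Mthfd2 at 1.58 are filled, no purple point is, and 6 blue points are. The 2 comparisons with Control share the same 4 lungs.

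On the per-length scale of transcripts-per-million (TPM), Atf4 was the most abundant member in each group, at 127 ± 11.3 (SD, n = 4) in Control, 132 ± 9.17 (n = 5) in WT bleomycin and 124 ± 8.61 (n = 4) in CB1R KO bleomycin. No other member's range reached that of Atf4. In Control the order below it was Shmt2 (14.6 TPM), Asns (13.1), Phgdh (11.9), Aldh18a1 (10.4), Psph (9.22), Psat1 (6.62), Mthfd2 (5.79), Pycr1 (1.98) and Aldh1l2 (0.646). Neighbours from Shmt2 to Psph overlapped in range, as did Psat1 and Mthfd2. In WT bleomycin lungs Aldh18a1 (19.8 TPM), Shmt2 (19.7) and Psat1 (19.6) came next after Atf4 with overlapping ranges, followed by Asns (17.3), Mthfd2 (13.1), Phgdh (12.7), Psph (9.23), Pycr1 (5.97) and Aldh1l2 (1.42). In Control the TPM of Psat1 was below that of Phgdh and of Psph in every lung, and in WT bleomycin it was above both in every lung. In CB1R KO bleomycin the order was Atf4, Shmt2 (19.1 TPM), Asns (17.0), Psat1 (16.3), Aldh18a1 (15.6), Phgdh (12.6), Mthfd2 (10.9), Psph (9.12), Pycr1 (5.81) and Aldh1l2 (1.16), and here the neighbours from Shmt2 down to Pycr1 overlapped in range.

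Each of 4 members was also set against a partner within the same lung, as a ratio of TPM values, so that the size of the library drops out. For 3 of the 4, WT bleomycin lungs had the higher ratio, with no overlap between the groups. Mthfd2 against Mthfd2l, its paralog in the mitochondrion, was 0.593, 0.466, 0.516 and 0.249 in Control and 0.842, 0.991, 0.822, 0.940 and 0.839 in WT bleomycin, so the form that had been the lesser came close to the level of its partner. Aldh1l2 against Aldh1l1, the cytosolic form, was between 0.0383 and 0.0807 in Control and between 0.0984 and 0.140 in WT bleomycin. Aldh18a1 against Prodh, which starts the breakdown of proline, was 0.632, 0.777, 0.431 and 0.365 in Control and 2.23, 2.44, 1.57, 2.19 and 1.52 in WT bleomycin. The synthetic gene was thus below the breakdown gene in every Control lung and above it in every WT bleomycin lung. Each of these 3 differences had p = 0.00794 in a two-sided exact permutation test, the smallest that 5 mice against 4 allow, and an adjusted p = 0.0298 over the 15 tests of the family in the same exact test. Shmt2 against Shmt1, the cytosolic form, was between 3.05 and 3.50 in Control and between 3.25 and 4.24 in WT bleomycin, which overlapped (adjusted p = 0.446, exact permutation test). With 1 mouse of either group left out, the adjusted p of the 3 ratios was 0.067 or 0.0714 in the same exact test, since fewer mice allow fewer arrangements.

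**Figure D3:**
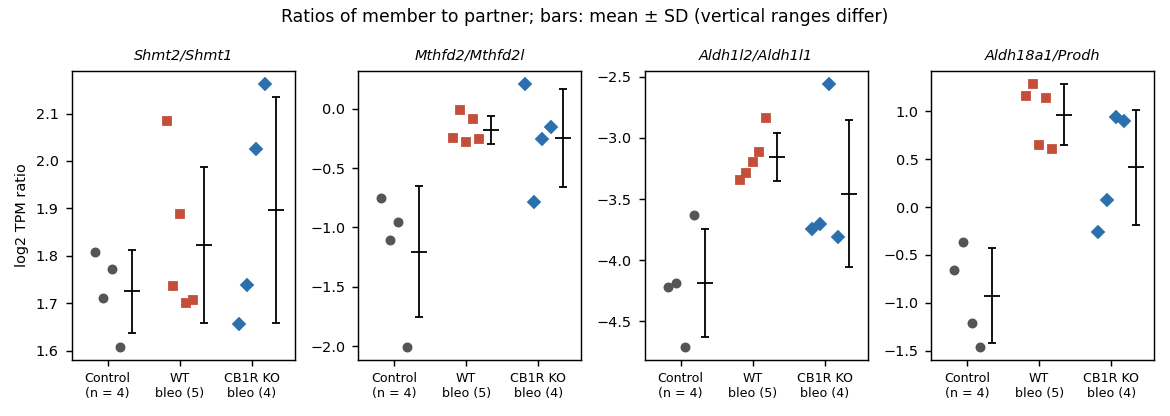
Log2 ratio of TPM (vertical axis, range set per panel) of a member to its partner in each mouse, with bars for the group mean ± SD. For Mthfd2, Aldh1l2 and Aldh18a1 all WT bleomycin lungs lie above all Control lungs. For Aldh1l2 the CB1R KO lung at the top is replicate 10.

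In CB1R KO bleomycin lungs Aldh18a1 against Prodh was 0.833, 1.06, 1.92 and 1.87 in replicates 8, 9, 10 and 11, with the first 2 between the other groups. Mthfd2 against Mthfd2l was 1.16, 0.581, 0.836 and 0.898 on the TPM scale. Here replicate 8 was the highest of all 13 lungs and replicate 9 lay inside the Control range. In replicate 8 Mthfd2 itself was at 10.6 TPM, below every WT bleomycin lung, while its Mthfd2l, at 9.13 TPM, was the lowest of all 13 lungs. None of the 4 ratios passed the test between CB1R KO and WT bleomycin (adjusted p between 0.225 and 0.782, exact permutation test). Against Control that of Aldh18a1 did not overlap, with p = 0.0286, the smallest that 4 mice against 4 allow, and an adjusted p = 0.0714 in the exact permutation test.

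The partners themselves moved less or the other way. Prodh fell by 0.95 on the log2 scale (SE 0.13, adjusted p = 3.1e-05 with edgeR), from 24.7 ± 2.47 CPM (SD, n = 4) to 12.8 ± 1.34 CPM (n = 5). Shmt1 rose by 0.31 (SE 0.12, adjusted p = 0.0438 with edgeR). This call was lost under 16 of 25 alternatives. Mthfd2l (0.12, SE 0.11) and Aldh1l1 (0.12, SE 0.10) did not pass the test.

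The members rose in lungs where the RNA of cell type markers had changed too, and these values stand beside them. Summed CPM of 8 markers of dividing cells was 39.4 to 59.2 in Control, 229 to 350 in WT bleomycin and 142 to 401 in CB1R KO bleomycin, with 8 of 8 called higher in WT bleomycin. Summed CPM of 7 markers of activated fibroblasts was 473 to 533, 1108 to 1431 and 834 to 1114 in the same order, with 7 of 7 called higher. For 9 markers of monocyte-derived macrophages it was 260 to 398, 2328 to 2891 and 1645 to 2409, with 8 of 9 called higher. No marker of these 3 lists was at 0 in every library of a group. Endothelial markers were lower, at 4000 to 4794 CPM in Control and 2568 to 2950 in WT bleomycin, with 8 of 8 called lower, and so were cardiac muscle markers, at 665 to 1686 and 112 to 441, with 7 of 7. The part of these cells in the result was not tested.

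CB1R deletion was compared with wildtype among the bleomycin lungs. None of the 10 members passed the threshold with edgeR, and 0.979% of all genes did. At an unadjusted p under 0.05 there were 3 members, all lower in CB1R KO, where 17.0% of all genes met that mark and 9.08% did so in the lower direction. They were Psat1 (log2 fold change -0.31, SE 0.11, adjusted p = 0.165), Aldh18a1 (-0.29, SE 0.12, adjusted p = 0.238) and Mthfd2 (-0.37, SE 0.16, adjusted p = 0.258), all from edgeR. DESeq2 and limma also called 0 members. For none of the 10 did the CB1R KO and WT bleomycin lungs separate without overlap, which 3.10% of all genes did in the lower and 2.50% in the higher direction. The fitted value was below 0 for 9 of 10 members, with a median of -0.16, against 0.00 for all genes. Of the 10, 7 had been called higher in these same WT bleomycin lungs, which by itself favours values below 0. No share over genes raised in the same way stands beside this count. For the 3 genes the unadjusted 95% intervals were -0.53 to -0.08 for Psat1, -0.54 to -0.03 for Aldh18a1 and -0.72 to -0.03 for Mthfd2. That they leave out 0 follows from the choice of these genes by unadjusted p and adds no support.

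Psat1 was at 21.3, 25.0, 28.0 and 29.2 CPM in CB1R KO replicates 8, 9, 10 and 11, of which the first 2 lay below all WT bleomycin lungs. Mthfd2 was at 10.1, 10.2, 14.4 and 13.5 CPM, and all but replicate 10 lay below the WT range. Aldh18a1 was at 23.1, 25.6, 33.2 and 30.1 CPM, and again only replicate 10 reached the WT range.

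Aldh1l2 was at 3.07, 3.74, 6.46 and 3.41 CPM, with replicate 10 above all WT bleomycin lungs and the other 3 below all of them (log2 fold change -0.32, SE 0.23). Pycr1 was at 6.15, 4.89, 7.70 and 5.33 CPM, with replicate 10 again on top of both groups (-0.19, SE 0.18). Shmt2 was at 26.4, 23.6, 32.2 and 26.0 CPM and replicate 10 was once more above all WT bleomycin lungs (-0.08, SE 0.09). Asns, at 19.4, 22.0, 20.8 and 20.9 CPM, stayed close to the WT lungs in all but replicate 8 (-0.06, SE 0.08). These values hung on single CB1R KO lungs. Without replicate 10 they were -0.59 for Aldh1l2, -0.32 for Pycr1 and -0.17 for Shmt2. They were -0.20 for Aldh1l2 and -0.03 for Asns without replicate 8, and -0.10 for Pycr1 and -0.03 for Shmt2 without replicate 9.

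The log2 fold change of Atf4 was -0.13 (SE 0.07, adjusted p = 0.37 with edgeR), with all but replicate 9 below every WT bleomycin lung. Psph was at 7.59, 7.90, 8.14 and 8.86 CPM (log2 fold change -0.14, SE 0.11) and 3 of these lungs lay just below the WT range. Phgdh was at 9.03, 12.0, 16.3 and 19.4 CPM, so that replicates 8 and 9 lay below and replicates 10 and 11 above every WT bleomycin lung. Its log2 fold change was 0.01 (SE 0.17), or 0.17 without replicate 8 and -0.19 without replicate 11, and its SD on the log2 CPM scale was 0.48 in CB1R KO against 0.07 in WT bleomycin and 0.09 in Control. The next widest spread within a group was close to it, that of Aldh1l2 in CB1R KO (0.47).

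Counted over the 7 members that bleomycin had raised, replicate 8 lay below all WT bleomycin lungs for 6, replicate 9 for 6, replicate 11 for 5 and replicate 10 for 0. The 7 were picked for high values in these same WT bleomycin lungs, which by itself favours such counts. No share over all genes stands beside them, so they only describe how the 4 lungs differed from each other. The median difference from the WT bleomycin mean over all 10 members was -0.40 on the log2 CPM scale in replicate 8, -0.31 in replicate 9, -0.16 in replicate 11 and -0.04 in replicate 10. Marker sums differed between these lungs too. Dividing cell markers were at 142, 181, 340 and 401 CPM in replicates 8, 9, 10 and 11, activated fibroblast markers at 834, 838, 1114 and 838 CPM, monocyte-derived macrophage markers at 2158, 1645, 2409 and 1908 CPM, and type II cell markers at 19857, 22615, 14521 and 21503 CPM. Replicate 10 was thus the lung of the group nearest to WT bleomycin in its fibroblast and type II cell markers as well, where WT bleomycin lungs held 1108 to 1431 and 12549 to 14222 CPM. The part of these marker differences in the members' values was not tested. Without replicate 10 the number of members called was still 0, although the number of all genes called went from 150 to 653.

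**Figure D4:**
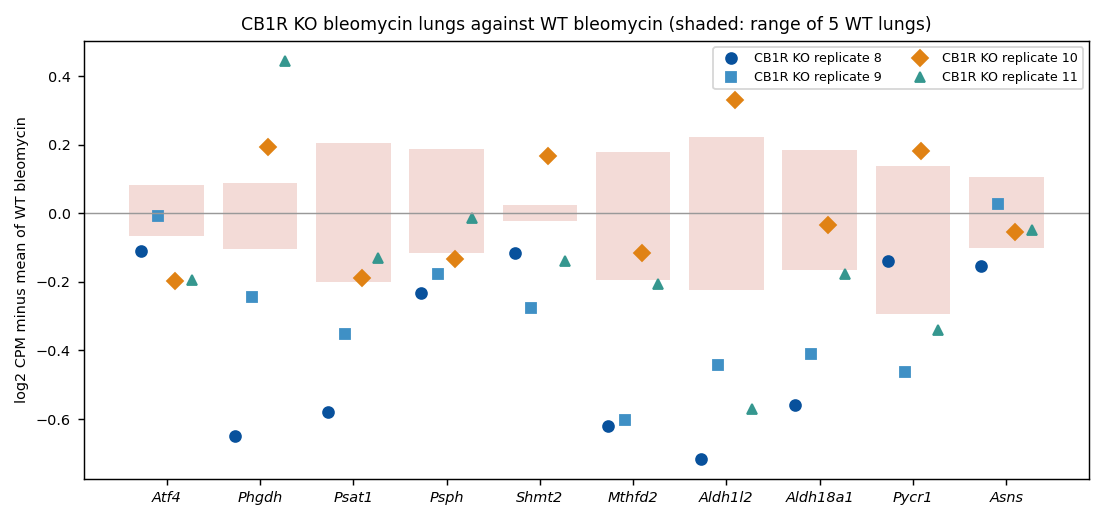
Log2 CPM of each member in each CB1R KO bleomycin lung (points), as a difference from the mean of the 5 WT bleomycin lungs (line at 0), with the WT range shaded. Replicate 8 lies below 0 for all 10 members, down to -0.72 for Aldh1l2, while replicate 10 lies within or above the shaded range for all 7 members raised by bleomycin.

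Against the Control lungs, which serve both comparisons, 6 members were called higher in CB1R KO bleomycin, where 19.0% of all genes were higher and 16.3% lower. Psat1 rose by 1.25 on the log2 scale (SE 0.12), Pycr1 by 1.22 (SE 0.20), Mthfd2 by 1.21 (SE 0.18), Aldh18a1 by 0.80 (SE 0.13), Shmt2 by 0.31 (SE 0.09) and Asns by 0.30 (SE 0.09), with adjusted p between 4.6e-06 and 0.0164 from edgeR. For these 6 the groups did not overlap, as for 17.7% of all genes. Aldh1l2, at 0.66 (SE 0.25), missed the threshold (adjusted p = 0.0565 with edgeR). It was called when replicate 8 was left out (log2 fold change 0.77, adjusted p = 0.0347), and Shmt2 was no longer called when Control replicate 26 was left out (0.25, adjusted p = 0.0559), both with edgeR. Atf4 (-0.11, SE 0.07), Phgdh (0.00, SE 0.17) and Psph (-0.06, SE 0.12) did not pass. Side by side, the values were 1.58 in WT and 1.21 in CB1R KO for Mthfd2, 1.55 and 1.25 for Psat1, and 1.40 and 1.22 for Pycr1. They were 1.09 and 0.80 for Aldh18a1, 0.97 and 0.66 for Aldh1l2, 0.40 and 0.31 for Shmt2, and 0.36 and 0.30 for Asns. With the Control lungs shared, these gaps repeat the comparison of CB1R KO with WT bleomycin, in which no member was called.

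Other genes around the pathway were taken from 6 lists, of which 107 genes were tested. In WT bleomycin against Control 39 of them were higher and 19 lower, with a median log2 fold change of 0.12. Of all genes 25.0% were higher and 23.9% lower, which is the background for the counts of each list. In the list of 17 sensors and regulators of the stress response that acts on Atf4, 5 were higher and 5 lower, with a median of -0.07. Cebpb, a partner factor of Atf4, rose by 0.79 (SE 0.22), Eif2ak2, the kinase that senses double-stranded RNA, by 0.66 (SE 0.08), and Eif2s1, the initiation factor subunit that these kinases modify, by 0.65 (SE 0.07). Their adjusted p were between 2.9e-06 and 0.00882 with edgeR. The call on Cebpb was lost when the libraries labelled in capital letters (Control 26 and WT bleomycin 4-B2 and 7) were left out (0.80, adjusted p = 0.0527 with edgeR).

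Of 22 other known Atf4 target genes that were tested, 9 were higher and 5 lower, with a median log2 fold change of 0.24. Gdf15, a stress cytokine, rose from 1.42 ± 0.481 CPM (SD, n = 4) to 11.7 ± 1.38 CPM (n = 5), which was 3.03 on the log2 scale (SE 0.20, adjusted p = 8.9e-08 with edgeR). Slc7a11, the cystine carrier, rose by 2.08 (SE 0.25) and Stc2, a secreted glycoprotein, by 1.17 (SE 0.20), with adjusted p = 1.1e-05 and 0.000217 from edgeR. The list did not move one way. Vldlr, a lipoprotein receptor, fell by 0.78 (SE 0.10, adjusted p = 2.1e-05 with edgeR).

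The cytosolic aminoacyl-tRNA synthetases, which charge tRNAs with their amino acids and include known Atf4 targets, were more uniform, with 12 of 20 higher, 0 lower and 20 of 20 above 0. Their changes were small, with a median log2 fold change of 0.25. Rars rose by 0.49 (SE 0.07), Gars by 0.48 (SE 0.09) and Aars by 0.45 (SE 0.08), the enzymes for arginine, glycine and alanine, with adjusted p between 8.0e-05 and 0.000699 from edgeR.

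Among 23 other folate and glycine cleavage genes 7 were higher and 3 lower, with a median log2 fold change of 0.09. Slc46a1, a folate carrier, rose by 0.71 (SE 0.16). Gnmt, which uses up glycine by methylation, fell by 2.03 (SE 0.21), from 6.31 ± 1.08 CPM (SD, n = 4) to 1.54 ± 0.343 CPM (n = 5). Adjusted p were 0.00197 and 3.3e-06 for these genes with edgeR. Mthfd1, the cytosolic enzyme of the same chain as Mthfd2, fell by 0.40 (SE 0.08, adjusted p = 0.00062 with edgeR).

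Among 11 other genes of proline, glutamate and ornithine 4 were higher and 3 lower. Besides Prodh, Glul, which makes glutamine, fell by 0.86 (SE 0.23, adjusted p = 0.0061 with edgeR) with overlap between the groups, and Pycrl, the cytosolic reductase now called Pycr3, rose by 0.45 (SE 0.11, adjusted p = 0.00337 with edgeR). Among 14 genes that use or break down serine or asparagine 2 were higher, Sdsl, a serine dehydratase-like gene (1.35, SE 0.27), and Serinc2, named for serine incorporation (0.96, SE 0.11). In that list 3 were lower, with Cbs, which joins serine to homocysteine, at -0.77 (SE 0.18). Their adjusted p were 0.000802, 5.4e-06 and 0.00303 with edgeR.

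**Figure D5:**
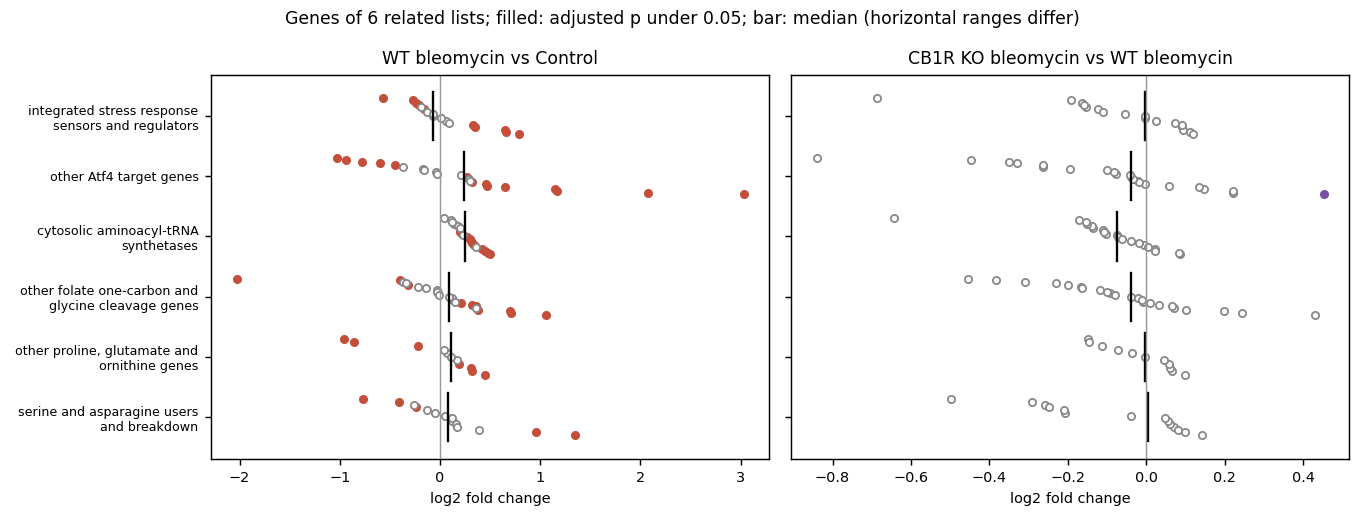
Log2 fold change (horizontal axis, range set per panel) of the 107 tested genes of 6 related lists in WT bleomycin against Control (left) and CB1R KO against WT bleomycin (right), with a bar at the median of each list and filled points for an adjusted p under 0.05. On the left the 20 tRNA synthetases all lie above 0, and on the right 1 point, Vldlr, is filled.

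Between CB1R KO and WT bleomycin 1 of the 107 genes was called, which was 0.935% against 0.979% of all genes, and 20 had an unadjusted p under 0.05, where 17.0% of all genes did. Both shares were near those of all genes. The called gene was Vldlr, at 34.9 to 41.9 CPM in WT bleomycin and 42.3 to 57.6 in CB1R KO bleomycin. The groups did not overlap and the log2 fold change was 0.45 (SE 0.10, adjusted p = 0.048 with edgeR). This call was lost under 14 of 25 alternatives, among them 9 with 1 library left out (CB1R KO replicates 8, 9 and 11, Control replicates 24 and 26, and WT bleomycin replicates 2, 4-B2, 5 and 7), and over all 25 the log2 fold change was between 0.40 and 0.54. Slc7a5, the carrier of large neutral amino acids and a known Atf4 target, was at 14.2 to 22.3 CPM in CB1R KO against 23.6 to 44.6 CPM in WT bleomycin. It had the lowest fitted value of the named genes, -0.84 (SE 0.21), and missed the threshold with edgeR (adjusted p = 0.0671), while it passed with DESeq2 on all libraries (adjusted p = 0.0046) and, with edgeR, without replicate 10 (-0.95, adjusted p = 0.033). Its value was nearer to 0 without the libraries labelled in capitals (-0.45, adjusted p = 0.328 with edgeR) and with the label style as a batch term (-0.60, adjusted p = 0.198 with edgeR). Cebpb was at -0.69 (SE 0.22, adjusted p = 0.141 with edgeR) and Gdf15 at -0.08 (SE 0.16, adjusted p = 0.849 with edgeR).

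Among genes in none of the lists, the pattern most like the members' was sought by the smallest root mean square difference from the median of the 10 members, on log2 CPM centred for each gene over the 13 libraries. The 5 nearest were Mpzl3 (0.0706), Prdx5 (0.0837), Erp29 (0.0849), Tor2a (0.0866) and Ranbp1 (0.0916), each of which was nearer to that median than any single member, the nearest being Shmt2 (0.157) and Asns (0.160). Their rise with bleomycin follows from that choice and is not a result. Prdx5 encodes a peroxiredoxin and Erp29 a chaperone of the endoplasmic reticulum.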

How the data were processed

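RNA was extracted from lung, and poly(A)-selected libraries were sequenced as 2 × 150 base pairs. The authors pseudo-aligned the reads with kallisto to the mouse build GRCm39 (tool and build as named in the submitters' processing notes) and deposited gene-level estimated counts and TPM, with 70.2% of the counts not whole. Of the TPM columns, 1 matched no sample and was not used. The 13 single-sample files repeat the same values.

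Estimated counts were rounded, filtered with filterByExpr, scaled by TMM and fitted for the 3 groups together with edgeR 4.0.16 in R 4.3.3 (glmQLFit, glmQLFTest), with Benjamini-Hochberg adjustment over the 15315 genes tested. CPM use the TMM library size, and log2 CPM a prior count of 2. DESeq2 1.42.0 and limma 3.58.1 on log2(TPM + 1) and log2(TPM + 0.1) were alternatives, as were other filters and scalings, CB1R KO replicate 11 thinned, fits of 2 groups, the style of the labels (capital letters in Control 26 and WT bleomycin 4-B2 and 7) as a batch term or with those libraries left out, and each library left out. Fits were tested on simulated data. Each library was taken as a separate mouse, although the WT bleomycin labels 4 and 4-B2 share a number. The p-values set differences between groups against the spread between these libraries.

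Besides the members, the text names the ratio partners, Cnr1, up to 3 called genes per list with the largest change with bleomycin, up to 2 per list with the lowest p between CB1R KO and WT bleomycin (values only where a result turns on them), and the 5 genes most like the members' median. Of 5 ratios tested, which with 3 comparisons gave the 15 tests adjusted together, 1 is not reported here, and neither are the values of 2 list genes, which remain in the counts. Members and lists were chosen with earlier results of these data known. The 5 list genes Fgf21, Gldc, Prodh2, Gls2 and Sds did not pass the filter. Sequences are from RefSeq.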

Additional observations from a re-analysis of the deposited data

Results flagged for a closer look

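Within groups of 4 or 5 lungs, 42 sets of values (10 members and 4 ratios in 3 groups) were searched for a lung that stood apart by Dixon's 95% criterion, which chance alone meets in about 1 of 20 sets. There were 2. Pycr1 in WT bleomycin replicate 4 was at 2.49 log2 CPM, where the other 4 lungs of its group were between 2.81 and 2.92. The log2 ratio of Aldh1l2 to Aldh1l1 in CB1R KO replicate 10 was -2.56, where the other 3 were between -3.81 and -3.71. No member's difference between CB1R KO and WT bleomycin passed the threshold.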

How the results depend on the processing

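The same 7 members were called higher in WT bleomycin under each of 25 alternatives, and the number called between CB1R KO and WT bleomycin was 0 under each. Libraries whose labels are in capitals cover no CB1R KO lung, so for that comparison the label style and the group cannot be fully told apart. The number of all genes called there was 150 with edgeR on 3 groups. It was 644 with DESeq2 on all libraries and 644 with DESeq2 on 2 groups, 88 with edgeR on 2 groups, 93 with limma on log2(TPM + 0.1), 6 in the lower-case libraries alone and 41 with the label style as a batch term. The number of list genes called in it, 1 of 107, was 6 with DESeq2 on 2 groups, 4 with DESeq2 on all libraries and 0 with edgeR on 2 groups, with limma at either pseudocount, in the lower-case libraries and with the batch term. Leaving out each library in turn, these counts ran from 1 (without CB1R KO replicate 9) to 653 (without replicate 10) for all genes and from 0 to 3 for list genes. The cause was not tested. Against Control, 5 to 7 members were called in CB1R KO bleomycin with 1 library left out, and Shmt2 then ran from 0.23 to 0.37 and Aldh1l2 from 0.38 to 0.77 on the log2 scale. Aldh1l2 passed the threshold there with replicate 11 thinned (log2 fold change 0.70), DESeq2 on all libraries (0.65), limma on log2(TPM + 0.1) (0.71) and the batch term (0.74), and ran from 0.37 to 0.77 over all 25 alternatives. Aldh18a1 no longer passed with limma on log2(TPM + 0.1) (0.63) or log2(TPM + 1) (0.58), nor Shmt2 in the lower-case libraries (0.26).

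In the lower-case libraries the log2 ratios of WT bleomycin over Control were 0.76 for Mthfd2 to Mthfd2l, 1.09 for Aldh1l2 to Aldh1l1 and 1.78 for Aldh18a1 to Prodh, with an adjusted p = 0.188 in the exact permutation test, which could not pass with 3 mice against 3. With 1 library left out they ran from 0.76 to 1.18, 0.85 to 1.21 and 1.71 to 2.08 in the same order. No paired analysis was possible because the groups compared share no replicate numbers. The lowest counts among the members were those of Aldh1l2 and Pycr1, with 27.0 and 28.5 estimated counts in their lowest libraries. Apart from the thinning of CB1R KO replicate 11, an effect of depth on their values was not tested.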
